A study of Mus musculus with 2 samples.

Results

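Regulatory T (Treg) cells were examined in droplet-based single-cell RNA sequencing of the omentum, the visceral fat of the mouse abdomen whose lymphoid aggregates are known as milky spots. The 2 libraries came from a wild-type (WT) and a *Postn*-DTR group. *Postn*-DTR mice are C57BL/6 mice in which the diphtheria toxin (DT) receptor was inserted by gene targeting under control of *Postn*, so that DT kills cells that express this gene. Both groups received DT, and omental cells were collected 5 d later, so the toxin is shared. The study used heterozygotes with the receptor in the first coding exon of *Postn*. The groups thus differ in the receptor and in a *Postn* allele. Each library pooled the cells of 3 mice, no sort before capture is stated, and cells outside the omentum that express *Postn* can also be hit in this model. With 1 library per group the design holds no replicate, so differences are given as values and were not tested.

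A cell was called a Treg cell when it had between 200 and 7500 detected genes, a transcript of *Foxp3* and of at least 1 of the CD3 genes *Cd3e*, *Cd3d* and *Cd3g*, none of *Cd8b1* (CD8 T cells) or *Cd79a* (B cells), and fewer than 2 of the cycling genes *Mki67*, *Top2a*, *Ube2c* and *Birc5*. The members were thus chosen by the measured values of these genes, whose levels are given below only as a description. They were 303 of 14414 cells, with 243 from WT and 60 from *Postn*-DTR mice. At the edge of the rule, 99 WT cells and 21 *Postn*-DTR cells entered with a single *Foxp3* unique molecular identifier (UMI, the tag that marks 1 captured transcript). Another 14 and 5 cells met all criteria except the one on cycling genes. Of the 307 WT and 85 *Postn*-DTR cells with *Foxp3* and a CD3 gene, *Cd79a* left out 39 and 16. *Cd8b1* left out 12 and 5, and a cell can count in more than 1 of these numbers. The libraries shared 65 cell barcodes, of which 1 belonged to a WT Treg cell and none to a *Postn*-DTR Treg cell.

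Treg cells are CD4 T cells that restrain other lymphocytes, and the transcription factor Foxp3 is required for their development and function. They depend on interleukin-2, which they bind through the high-affinity receptor that includes *Il2ra* (CD25), and they carry inhibitory and costimulatory receptors such as *Ctla4* and the TNF receptor family members *Tnfrsf4* (OX40), *Tnfrsf18* (GITR) and *Tnfrsf9* (4-1BB). In visceral fat a tissue-type Treg population is known that expresses the IL-33 receptor *Il1rl1* (ST2), *Klrg1*, *Gata3* and the growth factor *Areg*, whereas Treg cells that recirculate through lymph nodes carry *Ccr7*.

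The label was checked against its markers. *Ikzf2* (Helios) was detected in 194 of the 243 WT Treg cells and in 37 of the 60 from *Postn*-DTR mice. *Tnfrsf4* was detected in 189 and 51, and *Lrrc32*, which anchors latent TGF-β on the cell surface, in 90 and 20. In CD4 T cells without *Foxp3*, *Ikzf2* was detected in 187 of 856 (WT) and 16 of 93 (*Postn*-DTR). There *Tnfrsf4* was found in 289 and 56, and *Lrrc32* in 38 and 8. At least 1 of *Il2ra*, *Ctla4* and *Ikzf2* was present in 232 WT and all 60 *Postn*-DTR cells, and 11 WT cells had none of these 3 genes. Cells with *Jchain* or neutrophil genes and no CD3 gene gave an estimate of the background of the gate. A Treg cell without a CD3 UMI could also fall among those with *Jchain*. The gene was detected in 27.6% of WT and 50% of *Postn*-DTR Treg cells. In plasma cells (*Jchain* detected, no CD3 gene) a *Foxp3* UMI occurred in 11 of 1795 WT cells (0.613%; median 9119 UMIs per cell) and in 10 of 3404 *Postn*-DTR cells (0.294%; median 17854 UMIs). In neutrophils it occurred in 0 of 324 WT cells, which allows a share of up to 0.926%, and in 4 of 1024 *Postn*-DTR cells (0.391%). The opposite error was also visible, because among CD4 T cells without *Foxp3*, 163 of 856 (WT) and 16 of 93 (*Postn*-DTR) carried at least 2 of *Il2ra*, *Ctla4* and *Ikzf2*.

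Treg cells had a median of 3623 UMIs in WT and 3053 in *Postn*-DTR, and summed to 1123810 and 218712 UMIs. Over all cells the median was 5618 in WT and 8457 in *Postn*-DTR. RNA of other cell types was present among the Treg cells and differed between the libraries. Immunoglobulin genes took 0.162% of the UMIs of WT and 1.21% of those of *Postn*-DTR Treg cells. Markers of plasma cells were detected in 206 and 59 cells, with a mean sum of 9.28 and 28.7 UMIs per 10000. The medians of this sum were closer, at 7.37 and 11.7. Its highest value in 1 cell was 67.3 in WT and 813.7 in *Postn*-DTR, which raised the latter mean. Of 8 dendritic cell markers, 8 were detected in WT and 1 in *Postn*-DTR, where *H2-Aa* and *H2-Ab1* were at 0, and the mean sums were 8.02 and 0.139. Neutrophil markers rested on 1 cell in each library, which held 1357 of 1406 UMIs of 5 neutrophil genes in WT and 2011 of 2029 in *Postn*-DTR. Treg cells with 10 or more UMIs of the markers of B cells, plasma cells, neutrophils, macrophages, dendritic cells or stromal cells numbered 28 (WT) and 4 (*Postn*-DTR). Of these, 19 and 4 reached the cut on plasma cell markers. Their median depth was 8099 and 5845 UMIs, so leaving them out also removes deep cells. Values without them are given below for some genes and lists, and the cells that remain can still hold fewer than 10 such UMIs.

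Treg cells made up a smaller part of the omental cells after DT in *Postn*-DTR mice, but a larger part of the CD4 T cells that were left. Their share of all cells was 2.80% in WT (243 of 8680; 95% exact Clopper-Pearson interval, 2.46 to 3.17) and 1.05% in *Postn*-DTR (60 of 5734; 0.799 to 1.34), a ratio of 0.374 (0.282 to 0.495). All intervals here cover counting error only and hold nothing on differences between mice. Conventional CD4 T cells, which had *Cd4* and no *Foxp3* under otherwise the same rule, went from 9.86% (856 cells) to 1.62% (93 cells), a ratio of 0.164 (0.133 to 0.203), so the interval lay below that of Treg cells. Of CD4 T cells (Treg and conventional), 22.1% were Treg cells in WT and 39.2% in *Postn*-DTR, a ratio of 1.77 (1.41 to 2.22). Among the T cells as a whole the shares were 7.48% and 10.2%, a ratio of 1.37 (1.05 to 1.79). Because *Cd4* was detected in only 129 WT and 31 *Postn*-DTR Treg cells, the CD4 share was repeated with a *Cd4* UMI required of every cell, and was then 13.1% and 25%.

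**Figure D1:**
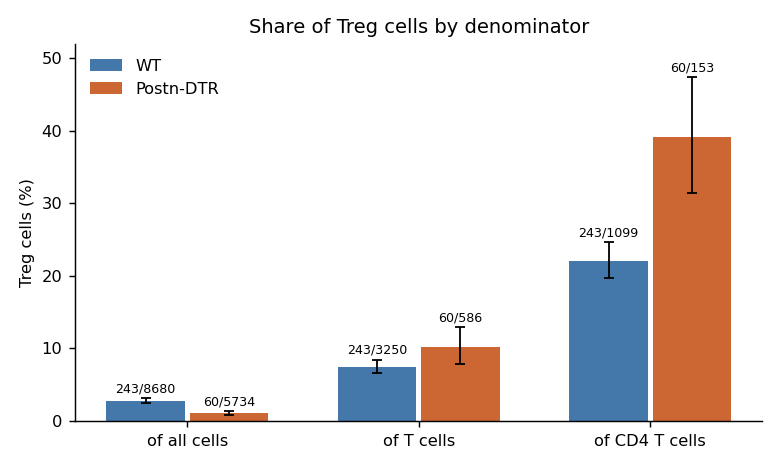
Treg cells in percent (vertical axis) of all cells, of T cells and of CD4 T cells in the WT and *Postn*-DTR libraries, with cell numbers above the bars and 95% Clopper-Pearson intervals for counting error as error bars. The share is lower in *Postn*-DTR over all cells (1.05% against 2.80%) and higher over CD4 T cells (39.2% against 22.1%).

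The share of all cells depended on the other cells in the library. Outside neutrophils and cells with any *Jchain* UMI and no CD3 gene, Treg cells were 3.65% of WT and 3.24% of *Postn*-DTR cells. The ratio was 0.890 (0.674 to 1.17). A *Jchain* UMI was also detected in 27.6% of WT and 50% of *Postn*-DTR Treg cells. This denominator can thus leave out cells other than plasma cells, and to a different extent in each library. With plasma cells taken only from 20 *Jchain* UMIs, the ratio was 0.694 (0.525 to 0.917). Fewer Treg cells in the tissue and more of the other cells cannot be told apart from these shares.

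The genes that set Treg cells apart from conventional CD4 T cells were compared within each library. In WT, 228 of 6316 genes with at least 100 UMIs were 2-fold or more higher in Treg cells (3.61%) and 109 were 2-fold or more lower (1.73%). In *Postn*-DTR the numbers were 45 of 887 higher (5.07%) and 23 lower (2.59%). The counts of each library include genes that define the cell groups, such as *Foxp3* and *Cd4*. Of the 882 genes measured in both, 29 were 2-fold or more higher in both libraries and 3 were 2-fold or more lower in both, leaving out the genes that define the cell groups. *Cd4* was among those left out (-1.06 in WT and -1.17 in *Postn*-DTR), because a *Cd4* UMI was required of conventional cells and not of Treg cells. Among genes detected in at least 10% of the cells of the higher side, the highest by the less extreme library was *Areg*, an EGF receptor ligand that promotes tissue repair, at 11.2 UMIs per 10000 in Treg and 2.26 in conventional cells of WT, and at 13.8 and 2.55 in *Postn*-DTR. *Tnfrsf9* stood at 3.03 against 0.38 in WT and 6.70 against 1.40 in *Postn*-DTR. *Ikzf2* stood at 7.30 against 1.06 and at 4.97 against 1.07. Also among the 10 highest were *Ctla4*, which competes for costimulatory ligands (4.0-fold in WT), the integrin chain *Itgav* (4.96-fold), *Gadd45b*, *Tent5a*, *Glrx*, *Capg* and the NF-κB regulator *Nfkbiz* (3.53-fold).

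With the same limits, the lowest genes relative to conventional cells were the cytotoxic granule gene *Nkg7*, at 0.53 against 3.59 UMIs per 10000 in WT and 0.64 against 5.27 in *Postn*-DTR, and the chemokine *Ccl5*. *Ccl5* was at 3.05 UMIs per 10000 in Treg and 9.17 in conventional cells of WT, and at 2.26 and 17.7 in *Postn*-DTR. *Tcf7*, a transcription factor of naive and memory T cells, followed at 1.68 against 4.90 in WT and 1.20 against 4.11 in *Postn*-DTR. The egress receptor *S1pr1* and the survival gene *Bcl2* were also among the 10 lowest, with *Slamf6*, *Thy1*, *Gramd3*, *Rexo2* and *Dnajc3*.

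Between the libraries, 2158 genes had at least 100 UMIs over the Treg cells of both. Of these, 43 were 2-fold or more higher in *Postn*-DTR (1.99%) and 66 were 2-fold or more lower (3.06%), and the median log2 ratio of *Postn*-DTR over WT was -0.04. Without the cells that held 10 or more UMIs of another cell type, the numbers were 37 and 81. A level below is the mean over Treg cells of UMIs per 10000, and a log2 ratio compares these means.

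Of the 16 Treg identity genes, 13 had enough UMIs, and 2 of them were 2-fold or more higher and 1 was 2-fold or more lower. The list's median log2 ratio was 0.34, against -0.04 for all genes. The gene at that median was *Foxp3* itself, so the rule also conditioned the median. *Foxp3* ranged from 0.309 to 27.1 UMIs per 10000 over WT cells with a median of 5.51, and from 1.05 to 45.6 with a median of 6.42 over *Postn*-DTR cells. Its mean was 6.80 in WT and 8.57 in *Postn*-DTR, and the cells of the libraries overlapped over nearly the whole range. This value was conditioned by the rule, which required *Foxp3*.

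The TNF receptor family members were higher in *Postn*-DTR Treg cells. *Tnfrsf18* had a median of 4.92 and a highest value of 29.7 UMIs per 10000 over WT cells, and a median of 10.9 and a highest value of 48.5 over *Postn*-DTR cells, with 0 as the lowest value in both. Its mean was 6.46 in WT and 14.3 in *Postn*-DTR (log2 ratio 1.14). On summed UMIs the log2 ratio was 1.07 (0.86 to 1.27). The gene lies on chromosome 4 (156026164 to 156028895, GRCm38), next to *Tnfrsf4* (156013843 to 156016612), and an annotated antisense gene overlaps it. *Tnfrsf4* had a median of 6.36 in WT and 11.5 in *Postn*-DTR, and means of 9.70 and 15.1 (0.63). *Tnfrsf9*, a receptor seen on recently activated T cells, had a mean of 3.03 and 6.70 (1.14) and a UMI in 88 of 243 and 31 of 60 cells. These differences were not particular to Treg cells, because in conventional CD4 T cells the log2 ratios were 1.54 for *Tnfrsf18*, 1.70 for *Tnfrsf4* and 1.87 for *Tnfrsf9*.

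None of the IL-2 receptor chains passed 2-fold, and they differed in direction. *Il2ra* went from 2.51 to 3.69 UMIs per 10000 (log2 ratio 0.56) and *Il2rb*, the signaling chain shared with the IL-15 receptor, from 3.87 to 7.18 (0.89), whereas *Il2rg*, the common γ chain, went from 7.92 to 5.46 (-0.54). In conventional cells *Il2ra* was at 0.29 and 0.27. *Ctla4* went from 10.1 to 13.9 (0.47) and *Lrrc32* from 1.86 to 2.32 (0.32). The cells of the 2 libraries overlapped for every one of these genes.

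Other identity genes were on the lower side, with ratios above 0 in conventional cells. *Nrp1*, a semaphorin coreceptor found on many Treg cells that arise in the thymus, had a highest value of 15.8 UMIs per 10000 (WT) and 9.92 (*Postn*-DTR), with a UMI in 118 of 243 and 13 of 60 cells. Its mean was 2.03 and 0.82 (log2 ratio -1.32; -1.27 on summed UMIs, -2.11 to -0.54), and the log2 ratio in conventional cells was 0.60. *Ikzf2* had medians of 5.97 and 3.46 and means of 7.30 and 4.97 (-0.55), against 0.02 in conventional cells. *Izumo1r* (folate receptor 4) had means of 6.40 and 4.46 (-0.52), against 0.21 in conventional cells. The *Nrp1* level, 3.32-fold above conventional cells in WT, was 0.877-fold of it in *Postn*-DTR.

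**Figure D2:**
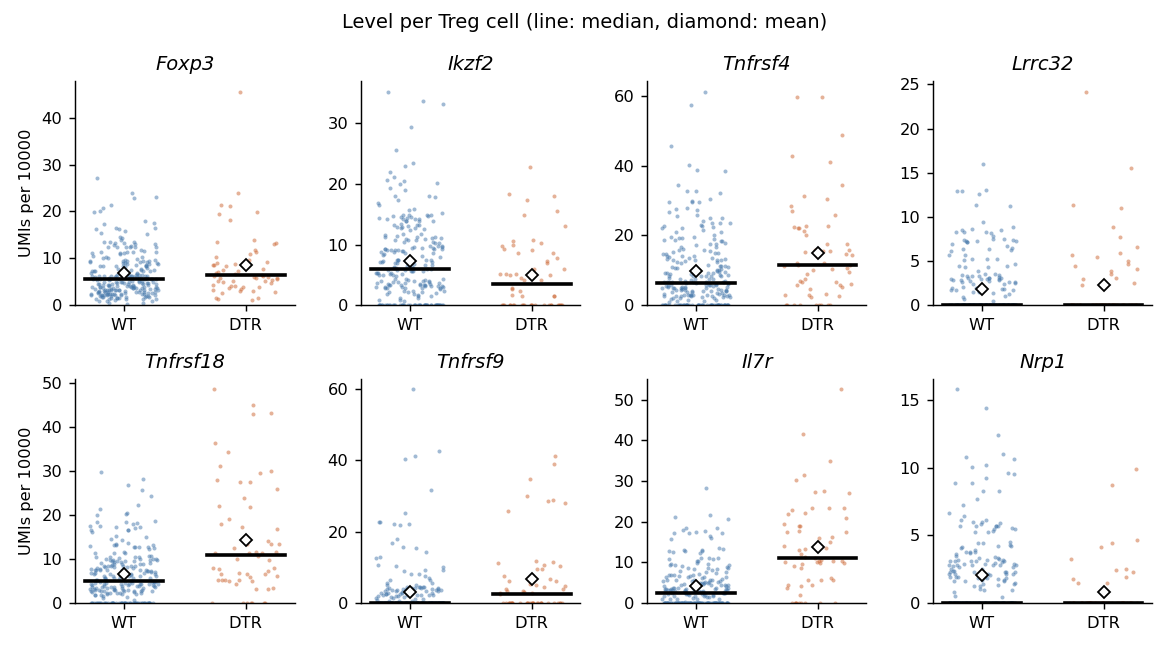
UMIs per 10000 (vertical axis) of 8 genes in every Treg cell of the WT (243 cells) and *Postn*-DTR (60 cells) libraries, with the median as a line and the mean as a diamond. *Tnfrsf18*, *Tnfrsf9*, *Tnfrsf4* and *Il7r* have higher means in *Postn*-DTR, *Ikzf2* and *Nrp1* lower ones, and the cells overlap for every gene.

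Of the 16 suppressive molecules, 9 had enough UMIs, 1 was 2-fold or more higher and none was 2-fold or more lower, with a median log2 ratio of 0.30. *Pdcd1* (PD-1), an inhibitory receptor, had a median of 0 in WT and 3.48 UMIs per 10000 in *Postn*-DTR, and highest values of 22.4 and 24.4. Its mean was 2.01 and 5.90 (1.55), with a UMI in 78 of 243 and 37 of 60 cells. *Tigit*, another inhibitory receptor, went from 2.93 to 5.84 (just under 2-fold). Conventional cells had log2 ratios of 1.76 for *Pdcd1* and 2.19 for *Tigit*. The ectoenzyme *Nt5e* (CD73) had the lowest value of the list, from 1.13 to 0.61 (-0.89). *Areg* had a UMI in 100 of 243 and 25 of 60 cells (0.30), and *Il10* in 17 and 5 cells, too few to compare.

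The tissue Treg genes did not move together. Of 16, 9 had enough UMIs, none passed 2-fold in either direction, and the median log2 ratio was 0.08. *Il1rl1* was highest in the list, from 1.08 to 2.03 UMIs per 10000 (0.91; on summed UMIs 1.13, 0.59 to 1.66), whereas in conventional cells it was at 0.19 and 0.15, on 84 and 5 UMIs, too few to compare. *Id2*, a repressor of E proteins, went from 1.87 to 3.47 (0.89) and *Gata3* from 2.67 to 3.80 (0.51). *Klrg1* went from 2.33 to 1.86 (-0.32) and *Maf* from 2.22 to 1.69 (-0.39), the lowest of the list. When each cell was thinned to 2000 UMIs, which left out 17 WT and 13 *Postn*-DTR cells, *Il1rl1* was detected in 14.2% of WT (9.89 to 19.4) and 31.9% of *Postn*-DTR Treg cells (19.1 to 47.1), a ratio of 2.25 (1.33 to 3.82). At 1000 UMIs per cell the ratio was 1.49 and its interval, 0.655 to 3.37, included 1. Unthinned the shares were 20.6% and 35%. *Klrg1* was detected in 23.5% and 21.3% of the thinned cells, a ratio of 0.907 (0.499 to 1.65).

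**Figure D3:**
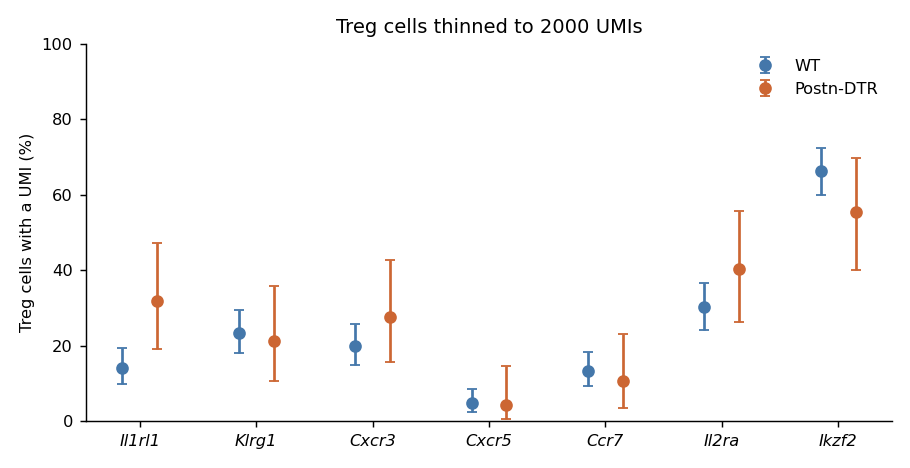
Treg cells with a UMI of each gene in percent (vertical axis) after every cell was thinned to 2000 UMIs, with 95% Clopper-Pearson intervals for counting error (226 WT and 47 *Postn*-DTR cells). *Il1rl1* is detected in 14.2% of WT and 31.9% of *Postn*-DTR cells, and for the other genes shown the intervals of the libraries overlap more widely.

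Genes of resting Treg cells went in different directions. Of 16, 10 had enough UMIs, and the median log2 ratio was -0.36. *Il7r*, the receptor for the survival cytokine interleukin-7, which Treg cells are known to carry at low levels, had a median of 2.39 and a highest value of 28.4 UMIs per 10000 in WT, and a median of 11.1 and a highest value of 52.5 in *Postn*-DTR. Its mean was 4.05 and 13.8 (1.76; on summed UMIs 1.78, 1.55 to 2.02), with a UMI in 145 of 243 and 51 of 60 cells. In conventional cells *Il7r* was at 5.02 and 8.57 (0.77), so its level in Treg cells was below that of conventional cells in WT and above it in *Postn*-DTR. *S1pr1* was at -0.80, *Ccr7* at -0.55 and *Tcf7* at -0.49.

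Of 20 homing receptors, 13 had enough UMIs, none was 2-fold or more higher and 2 were 2-fold or more lower, with a median log2 ratio of -0.42. The lower pair were integrin chains, *Itgb1* from 4.24 to 1.81 UMIs per 10000 (-1.23) and *Itgal*, part of LFA-1, from 1.67 to 0.80 (-1.05). In conventional cells they were at -0.11 and -0.18. *Ccr8*, a chemokine receptor of tissue Treg cells, was the highest at 0.85, and *Cxcr3* followed at 0.68. Without the cells that held RNA of another type, 1 gene of the list was 2-fold or more higher (*Ccr8*, 1.04) and 3 were lower. *Cxcr4*, the receptor of CXCL12, was at -0.53, on 186 and 27 UMIs with an interval on summed UMIs of -1.06 to 0.16. Of the helper lineage factors, 4 of 14 had enough UMIs, and *Stat3* was the highest (0.64).

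Cytokine signaling genes had a median log2 ratio of 0.43, with 13 of 20 measured, 2 that were 2-fold or more higher and none that was 2-fold or more lower. The higher pair were the feedback inhibitors *Socs1*, from 1.63 to 3.66 UMIs per 10000 (1.17), and *Socs3*, from 1.04 to 2.14 (1.04). *Socs3* was at 0.82 without the cells that held RNA of another type. *Il4ra* (0.97) and *Stat5b* (0.93), which transmits the IL-2 and IL-7 signals, came next, and *Il21r* was lowest (-0.95). Of 24 genes of T cell receptor signaling and the immediate early response, 20 were measured, none was 2-fold or more higher, and *Irf8* was lower (-1.25) on 142 and 7 UMIs. The list's median was -0.27, from -1.25 to 0.54 for *Jund*.

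Of 15 glucocorticoid-induced genes, 6 were measured and 3 were 2-fold or more higher, with a median log2 ratio of 0.91. *Tsc22d3* (GILZ) went from 1.33 to 2.73 UMIs per 10000 (1.04) and *Txnip*, an inhibitor of thioredoxin, from 1.0 to 2.07 (1.05). *Mt1*, a metallothionein, went from 0.30 to 2.41 (3.03), but 1 cell held 53 of its 88 UMIs in WT and 1 cell held 26 of 50 in *Postn*-DTR. Without the cells that held RNA of another type, 2 and 38 *Mt1* UMIs were left, *Tsc22d3* was at 0.93, and 2 genes of the list were 2-fold or more higher. *Ddit4* had the lowest value at 0.04. *Fkbp5*, which had too few UMIs to be ranked, was detected in 36 of 243 and 17 of 60 cells. Conventional cells had log2 ratios of 1.14 for *Tsc22d3* and 0.57 for *Txnip*.

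Of 18 interferon-stimulated genes, 6 were measured, with 1 that was 2-fold or more higher, 3 that were 2-fold or more lower and a median log2 ratio of -1.03. *Ifi27l2a* had a median of 7.52 and a highest value of 72.3 UMIs per 10000 in WT, and a median of 1.91 and a highest value of 33.8 in *Postn*-DTR. Its mean was 10.8 and 3.32 (-1.70), against -0.54 in conventional cells. *Bst2* (tetherin) was at -1.06 and *Rnf213* at -1.24. Without the cells that held RNA of another type, 4 genes were 2-fold or more lower. *Ly6a* (Sca-1) went the other way, from 3.90 to 10.4 (1.41), and was at 1.46 in conventional cells.

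**Figure D4:**
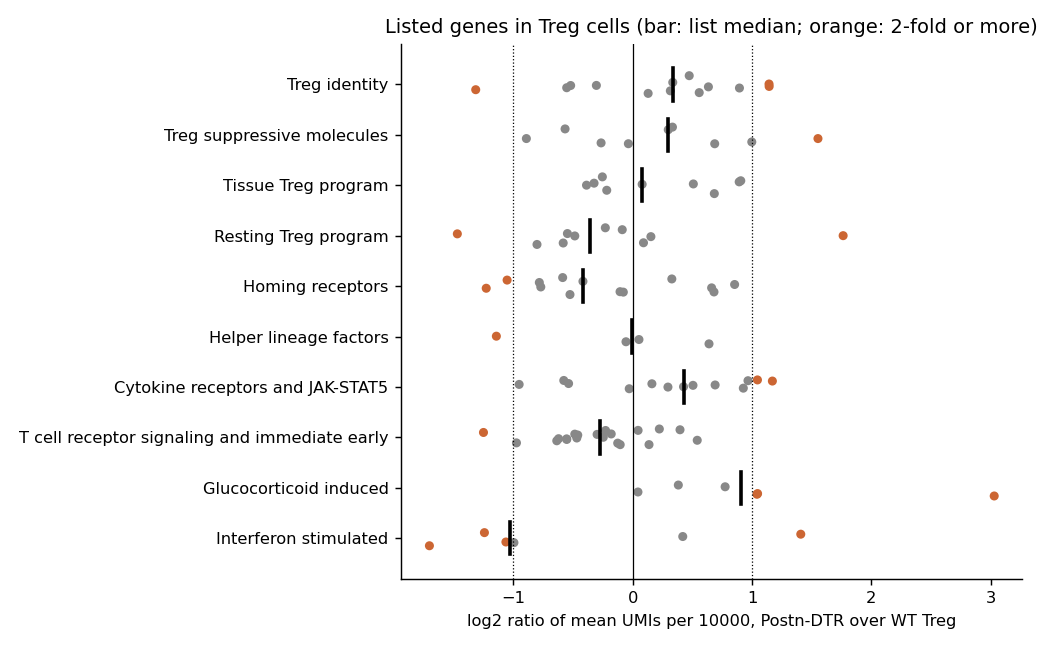
Log2 ratio of mean UMIs per 10000 in *Postn*-DTR over WT Treg cells (horizontal axis) for each measured gene of 10 lists, with list medians as bars, 2-fold limits as dotted lines and genes at or past 2-fold in orange. Medians run from -1.03 for interferon-stimulated genes to 0.91 for glucocorticoid-induced genes, and the tissue Treg list has no gene past 2-fold.

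The 4 genes that the study itself had named on these samples are no independent evidence, and 3 were measured, none past 2-fold. *Tmsb10*, which binds monomeric actin, went from 67.6 to 34.2 UMIs per 10000 (-0.98), *Cd52* from 16.7 to 8.68 (-0.94) and *Rps21* from 21.1 to 14.3 (-0.56). In conventional cells *Tmsb10* went from 91.8 to 58.8, *Cd52* from 19.9 to 15.3 and *Rps21* from 26.1 to 13.6. The 80 measured genes of cytosolic ribosomal proteins had a median of -0.07 and none passed 2-fold. Of the Notch pathway 2 of 17 genes were measured, *Psen2* (0.43) and *Lfng* (-0.67). Of the lipid genes 1 of 16 was measured, *Srebf2* (-0.63), and none of 14 retinoic acid response genes had enough UMIs.

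Among measured genes detected in at least 10% of the Treg cells of the library with the higher level, the 10 highest in *Postn*-DTR were *Mt1*, *Igkc*, *Icam1*, *Bcl3*, *Il7r*, *Arl5a*, *Vars*, *Ctla2a*, *S100a9* and *Pdcd1*. *Icam1*, an adhesion molecule and the ligand of LFA-1, had means of 0.87 and 4.08 UMIs per 10000 (2.22). It had a UMI in 56 of 243 and 25 of 60 cells. In conventional cells *Icam1* was at 0.20, on only 179 and 16 UMIs. *Bcl3*, a nuclear IκB family protein, was at 0.75 and 2.76 (1.88), against 1.60 in conventional cells. *Arl5a*, a small GTPase of the Golgi, was at 0.94 and 3.11 (1.73) and *Vars*, a valyl-tRNA synthetase, at 0.80 and 2.53 (1.67). *Ctla2a* was at 1.66 and at 0.95 without the richest cell of each library. In conventional cells *Arl5a* was at 1.06, *Vars* at 1.12 and *Ctla2a* at 0.80. There *Mt1* was at 2.22, *Igkc* at 2.29 and *S100a9* at -2.54. These 6 values rest on 19 to 174 UMIs in *Postn*-DTR. *Igkc* (2.26) is the κ light chain and *S100a9* (1.59) a neutrophil gene, which was at 0.94 without the cells that held RNA of another type. The neutrophil granule genes *Camp* (2.47), *Ltf* (2.42), *S100a8* (2.15), *Ngp* (1.98) and *Lcn2* (1.81) were detected in fewer cells than this limit. Without the cells that held RNA of another type, *S100a8* was at -0.93, *Ngp* at -0.49 and *Camp* at 0.93 on 7 and 3 UMIs. *Ltf* then had 0 UMIs in both libraries, and *Lcn2* had 5 in WT and 0 in *Postn*-DTR. Plasma cell and neutrophil RNA moved with these values as given above, and 693 of 712 *S100a9* UMIs in WT and 981 of 991 in *Postn*-DTR came from 1 cell each. Their part in the other differences was not tested.

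With the same limit, the 10 lowest were *Cd74*, *Rab8b*, *Marcksl1*, *Sp110*, *Ifi27l2a*, *Csnk2a1*, *Ifi30*, *Ckb*, *Ikbkb* and *Ndufs6*. *Cd74*, the invariant chain of MHC class II, had means of 10.1 and 0.50 UMIs per 10000 (-4.34), on 3835 and 8 UMIs, of which 1 WT cell held 1123. Without the cells that held RNA of another type its log2 ratio was -1.70. In conventional cells *Cd74* was at -4.8, on 4609 and 4 UMIs. The class II genes *H2-Aa* and *H2-Ab1* had 1273 and 969 UMIs in WT and 0 in *Postn*-DTR. *H2-Eb1* (991 UMIs in WT, 2 in *Postn*-DTR), the chemokine *Ccl1* (101 and 2) and *Plbd1* (162 and 4) were also lower but detected in fewer cells than the limit. *Ifi30*, a lysosomal reductase of antigen-presenting cells, went from -1.61 to -0.36 when those cells were left out. *Rab8b*, a small GTPase of vesicle transport, was detected in 88 WT cells and in 2 from *Postn*-DTR mice, with means of 1.08 and 0.11 (-3.35). It was at -3.22 without the cells with other RNA and at 0.33 in conventional cells. *Ikbkb*, the IκB kinase β, was at 1.08 and 0.37 (-1.55) on 106 and 8 UMIs, and *Sp110* at 1.04 and 0.30 (-1.79) on 116 and 11.

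**Figure D5:**
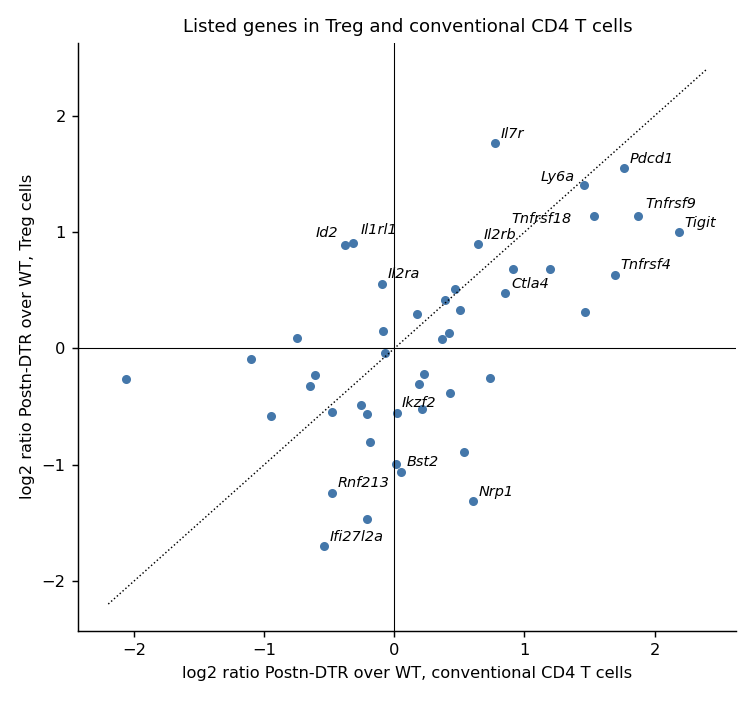
Log2 ratio of mean UMIs per 10000 in *Postn*-DTR over WT in conventional CD4 T cells (horizontal axis) and in Treg cells (vertical axis) for the measured genes of the identity, suppressive, tissue, resting and interferon lists, with equality as a dotted line. *Tnfrsf18*, *Tnfrsf9*, *Pdcd1* and *Tigit* are positive in both, whereas *Nrp1* is at -1.32 in Treg and 0.60 in conventional cells. Genes were selected on UMIs in Treg cells, and some, such as *Il1rl1* (84 and 5 UMIs) and *Nrp1* (245 and 39), have few in conventional cells.

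Sequences upstream of 3 of the higher genes are shown because their windows held a match to letters bound by factors downstream of T cell activation or of the IL-2 and IL-7 receptors. Windows of 250 bases before the start given by RefSeq (GRCm38.p6) were searched on both strands for GGGNNTTCC and GGANNTTCC, which are NF-κB-type letters, and for TTCNNNGAA, the STAT5-type letters. Matches are in capitals. The windows are *Il7r* at chr15:9529877-9530126 (minus strand, of which 86 bases are also an exon of a noncoding GENCODE transcript of the gene), *Icam1* at chr9:21015690-21015939 (plus strand) and *Bcl3* at chr7:19822756-19823005 (minus strand, the last 15 bases within an exon in GENCODE).
Il7r: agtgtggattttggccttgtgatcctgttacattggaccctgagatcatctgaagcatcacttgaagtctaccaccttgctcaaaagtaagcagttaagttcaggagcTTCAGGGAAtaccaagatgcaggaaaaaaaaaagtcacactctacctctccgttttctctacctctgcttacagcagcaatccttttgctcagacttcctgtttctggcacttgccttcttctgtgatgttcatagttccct
Icam1: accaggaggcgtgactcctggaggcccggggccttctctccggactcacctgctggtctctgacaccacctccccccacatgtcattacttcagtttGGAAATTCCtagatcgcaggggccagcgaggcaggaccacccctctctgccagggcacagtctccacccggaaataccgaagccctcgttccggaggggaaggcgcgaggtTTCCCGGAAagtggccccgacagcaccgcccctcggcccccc
Bcl3: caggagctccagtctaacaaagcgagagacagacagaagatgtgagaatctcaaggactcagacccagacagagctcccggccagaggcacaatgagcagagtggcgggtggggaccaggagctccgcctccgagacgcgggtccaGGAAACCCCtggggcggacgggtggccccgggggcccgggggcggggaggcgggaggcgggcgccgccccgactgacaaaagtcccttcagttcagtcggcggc

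The STAT5-type match began 142 bases before the *Il7r* start and 42 bases before the *Icam1* start, where the NF-κB-type match began at 153 bases. The match in *Bcl3* began at 104 bases. TTCNNNGAA was found in 7 of the 38 genes that were 2-fold or more higher and had a window, namely *Arid5b*, *Ctla2a*, *Icam1*, *Ifitm6*, *Il7r*, *Socs3* and *Tnfrsf18*. The share of all windows that held it was 7.17%, and that among the measured genes 6.10%. Of these 7, *Ifitm6* had 0 UMIs in both libraries without the cells that held RNA of another type. *Socs3* was then at 0.82, below 2-fold. GGGNNTTCC was found in 2 of the 38, or 5.26%, against 4.88% of all windows and 7.25% of those of measured genes. GGANNTTCC was also found in 2, against 3.58% and 4.20%. A match is a description of letters and says nothing of binding in these cells.

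Receptor V segments were spread over many cells. A *Trbv* segment was read in 230 of the 243 Treg cells of WT and 49 of the 60 of *Postn*-DTR mice, and 22 and 15 different segments led in at least 1 cell. *Trbv13-2* led in 12.2% of the WT cells (8.24 to 17.1) and 16.3% of the *Postn*-DTR cells (7.32 to 29.7). In WT it was followed by *Trbv3* (11.7%), *Trbv13-3* (7.39%), *Trbv19* (6.96%) and *Trbv15* (6.52%), and in *Postn*-DTR by *Trbv1*, *Trbv3* and *Trbv19* (12.2% each) and *Trbv16* (10.2%). Where both a *Trbv* and a *Trav* segment were read, 143 WT cells held 121 different pairs, the most frequent in 5 cells, and 31 *Postn*-DTR cells held 30 pairs, the most frequent in 2. Cells with the same pair of segments need not share a receptor, since the joining sequence was not read.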

How the data were processed

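Omental cells of WT and *Postn*-DTR mice were captured on the 10x Chromium platform. The kit is the 5′ v2 version per the labels and the 3′ v2 version per the methods. The submitters' processing notes list Cell Ranger 6.0.0 and mm10. The authors deposited natural log values, ln(1 + UMIs of a gene per 10000 UMIs of the cell), for 19960 genes. Gene names and coordinates (1-based) were taken from GENCODE M21 (GRCm38) by Ensembl identifier, of which 19950 matched.

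Values were returned to the linear scale, and whole UMIs were recovered from the smallest step of each cell (within 0.1 UMI for 99.96% of WT and 99.90% of *Postn*-DTR values). Levels are means of UMIs per 10000 over the cells. Genes with at least 100 UMIs over the cells compared were ranked, without V, D and J segments, and 2-fold stands for an absolute log2 ratio of at least 1. Summed UMIs carry exact conditional binomial 95% intervals, shares Clopper-Pearson intervals and ratios of shares Katz intervals. Cells were thinned without replacement. Doublets were called with Scrublet in scanpy 1.11.5 (97 of the WT and 110 of the *Postn*-DTR cells, with 1 Treg cell in each) and kept. The calculation was tested on simulated data under Python 3.11.15.

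The members and gene lists were chosen with earlier results of these data known. Named were the genes of the rule and the markers, at least the highest and lowest measured gene of each list, the 10 highest and 10 lowest log2 ratios among genes detected in at least 10% of the cells of the higher library, the 10 highest and 10 lowest over conventional cells by the less extreme library (without *Cd4* and the other genes of the rule), and the 5 leading *Trbv* segments. Alternatives were another filter, gate, denominator, scaling, depth or UMI minimum, and the removal of doublets or of the richest cell. Some genes of the lists are not reported here.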

Additional observations from a re-analysis of the deposited data

How the results depend on the processing

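No paired analysis was possible because each group is 1 library. For the same reason nothing here measures the spread between mice, and 60 *Postn*-DTR Treg cells limit every comparison. The ratio of the Treg share of all cells, 0.374, became 0.890 outside neutrophils and cells with any *Jchain* UMI and no CD3 gene. It became 0.694 with plasma cells taken from 20 *Jchain* UMIs, an alternative chosen after seeing the data. The required *Cd4* UMI and the removal of Treg cells with 10 or more UMIs of another cell type were also chosen then. The ratios of the shares of T cells and of CD4 T cells stayed within 1.37 to 1.6 and 1.73 to 1.91 under the alternatives tried. The counts of genes past 2-fold (43 higher, 66 lower) became 129 and 233 at a minimum of 50 UMIs and 10 and 12 at 300 UMIs. They became 26 and 107 without the cell with the most UMIs of the gene in each library, and 64 and 138 with cells thinned to 2000 UMIs. The cause was not tested, other than that the UMI minimum changes how many genes are measured. Of 1472 values of 134 named genes under the alternatives, 1367 stayed within the counting interval of the reported value, 96 lay outside it and 9, of genes past 2-fold, changed sign. With called doublets removed *S100a9* was at -3.81, *Lcn2* at -4.47, *S100a8* at -4.01 and *Ngp* at -4.12. Without the richest cell *Lcn2* was at -1.37 and *Ngp* at -0.43. Without cells with RNA of another type *S100a8* was at -0.93, *Ngp* at -0.49 and *H2-Eb1* at 0.50.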

Other observations

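Summed over each cell, 15 Treg identity genes other than *Foxp3* had a median of 57.5 UMIs per 10000 in WT Treg cells and 13.7 in WT conventional CD4 T cells, and of 72.8 and 29.8 in *Postn*-DTR. The 16 resting genes had a median of 15.2 in WT Treg cells and 31.8 in WT conventional cells, and of 26.4 and 27.2 in *Postn*-DTR, where the mean of *Il7r* was 13.8 in Treg cells against 4.05 in WT. The 16 tissue Treg genes had a median of 14.3 in Treg and 7.10 in conventional cells of WT, and of 21.5 and 9.04 in *Postn*-DTR. Ranges over cells overlapped in each case.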
